A study of Mus musculus with 12 samples.

Results

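The GATA factors are zinc-finger transcription factors that bind the DNA sequence GATA, and the Friend-of-GATA (FOG) proteins are cofactors that bind to them. Their transcripts were followed here from mouse embryonic stem cells into endoderm and mesoderm. The 8 genes are Gata1, Gata2, Gata3, Gata4, Gata5, Gata6, Zfpm1 (FOG1) and Zfpm2 (FOG2), taken by symbol from a table of 54446 genes, in which each stands in a single row. The table comes from 12 poly(A) RNA libraries of the E14 mouse embryonic stem cell line, 3 in each of 4 groups. SOX17+, SOX17+/T+ and T+ cells were differentiated from E14 and sorted by reporters for SOX17, an endoderm factor, and for T (Brachyury), which acts in the primitive streak. The mESC group was undifferentiated E14 grown with serum and the self-renewal cytokine LIF on irradiated fibroblast feeders. The labels give neither the differentiation protocol nor its length, and do not say that mESC were sorted away from their feeders. Whether a group's 3 libraries are separate cultures is not stated either, and p-values cover library-to-library spread alone, which may be technical.

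GATA4, GATA5 and GATA6 are known for endoderm and heart, where GATA4 and GATA6 act early and partly in place of each other. GATA1 and GATA2 are known for blood: GATA2 acts in progenitors and endothelium, and GATA1 drives red cells and megakaryocytes, replacing GATA2 on shared DNA sites. GATA3 is known for trophoblast, T lymphocytes, kidney and inner ear. FOG1 works with GATA1 in red cells and megakaryocytes, FOG2 with GATA4 in heart and gonad, and FOG proteins can bring in the NuRD and CtBP co-repressors.

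Levels are TPM (the authors' length-scaled transcript abundance, so that levels of different genes can be set side by side), given per library as replicates 1, 2 and 3 or as mean ± SD over n = 3 libraries. Differences are log2 fold changes on the log2(TPM + 1) scale ± SE from limma, a scale that understates changes of low genes. The call threshold was an adjusted p under 0.05 (Benjamini-Hochberg) over 16097 tested genes, those with at least 1 TPM in at least 3 libraries. All 8 genes passed this filter. Gata1 did so only through SOX17+ and SOX17+/T+, Gata3 and Gata5 only through the sorted groups and Zfpm2 only through mESC and T+, so some difference between the groups was built into their selection for the test. TPM carry no read counts, and how precise a low value is remains unknown.

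Marker lists followed the labels. Summed TPM of 12 pluripotency genes lay between 25.2 and 31.4 in SOX17+, 51.35 and 59.2 in SOX17+/T+, 122 and 148 in T+, and 6562 and 6686 in mESC. The 10 primitive streak and nascent mesoderm genes summed to 48.1 to 66.3 TPM in SOX17+, 179 to 238 TPM in SOX17+/T+, 436 to 520.5 TPM in T+ and 10.48 to 11.97 TPM in mESC. T, one of the 10, is a sort gene, so part of this order can follow from the gate. Its means were 2.32 TPM in SOX17+, 44.5 TPM in SOX17+/T+ and 127 TPM in T+. The 14 feeder fibroblast genes, led by Fn1 and Vim, summed to 1101 to 1225 TPM in SOX17+, 1384 to 1522 TPM in SOX17+/T+, 1476 to 1693 TPM in T+ and 4323 to 5216 TPM in mESC. The part of feeder cells in the mESC values was not tested. In bulk RNA, fewer cells of a type and less RNA per cell cannot be told apart. Libraries of 1 group correlated at r = 0.995 to 0.997 across genes.

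The summed TPM of Gata1 to Gata6 was 227, 219 and 216 in the SOX17+ libraries, 165, 153.5 and 160.3 in SOX17+/T+, 133, 137.5 and 132 in T+ and 8.07, 8.27 and 8.38 in mESC. The 4 groups did not overlap in this sum. Gata4 and Gata6 together held 75.7 ± 1.14% of it in SOX17+, 80.6 ± 0.446% in SOX17+/T+, 82.4 ± 0.25% in T+ and 51.1 ± 0.389% in mESC. Gata2, the most abundant GATA transcript in mESC, held 32.0 ± 0.865% there, against 5.75 ± 0.712% in SOX17+, 2.55 ± 0.264% in SOX17+/T+ and 1.86 ± 0.162% in T+. Gata4 and Gata6 thus made up most of the sum in every sorted library.

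**Figure D1:**
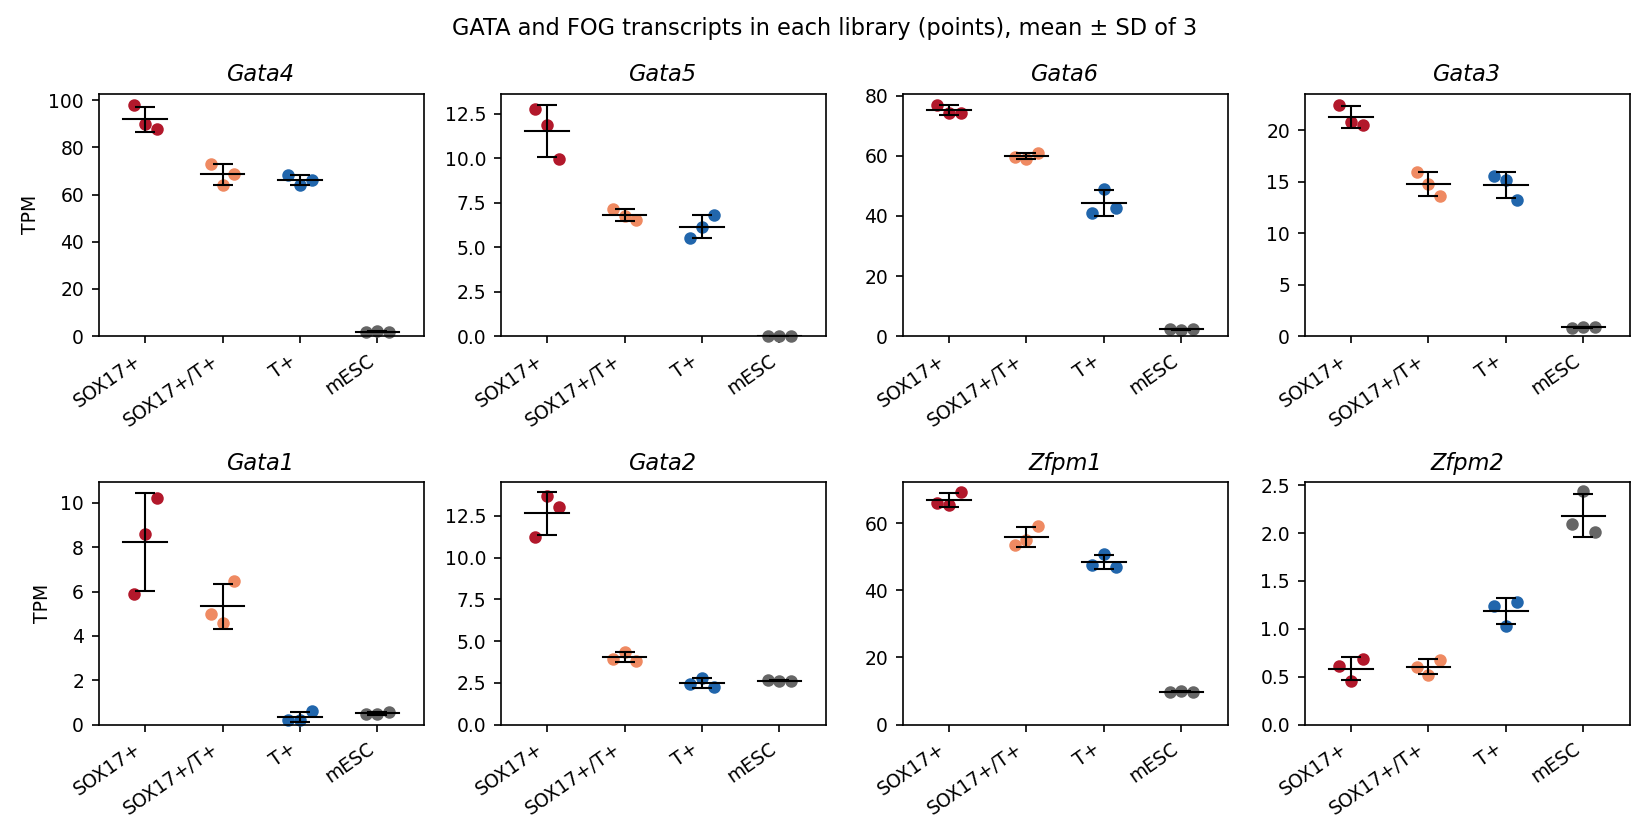
TPM of the 8 genes (vertical axes, each panel with its own scale from 0) in SOX17+, SOX17+/T+, T+ and mESC libraries. Points are replicates 1, 2 and 3 from left to right within a group, bars the mean ± SD of n = 3. Gata4, Gata5 and Gata3 are nearly level in SOX17+/T+ and T+ and higher in SOX17+, Gata6 and Zfpm1 step down over the groups, Gata1 is near 0 in T+ and mESC, and Zfpm2 is highest in mESC.

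**Figure D2:**
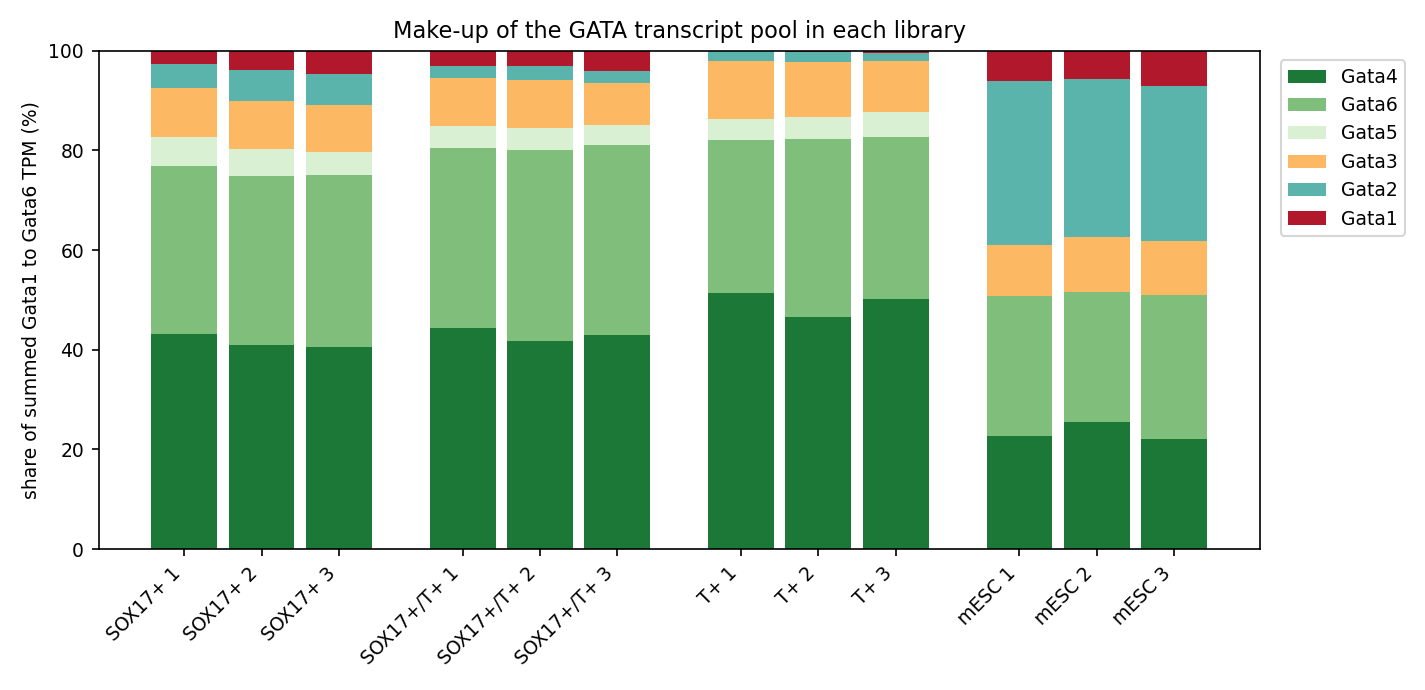
Share of the summed Gata1 to Gata6 TPM (vertical axis, %) held by each GATA gene in each of the 12 libraries. Gata4 and Gata6 (greens) hold 74.9 to 82.6% in the sorted libraries and 50.7 to 51.5% in mESC, where Gata2 is the largest single share.

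Gata4 (ENSMUSG00000021944.15, chromosome 14, 63198922 to 63271692 in GRCm38, minus strand) encodes a pioneer factor of endoderm and heart. It stood at 98.0, 89.9 and 87.7 TPM in SOX17+, 73.0, 64.1 and 68.8 TPM in SOX17+/T+, 68.2, 64.2 and 66.1 TPM in T+ and 1.84, 2.11 and 1.85 TPM in mESC. Every SOX17+ library lay above every SOX17+/T+ and T+ library, the SOX17+/T+ and T+ libraries overlapped, and mESC lay far below all of them. SOX17+ was higher than SOX17+/T+ by 0.41 ± 0.06 (limma, adjusted p = 1.4e-04) and higher than T+ by 0.47 ± 0.06 (adjusted p = 2.3e-05). Between SOX17+/T+ and T+ the difference was 0.05 ± 0.06, with a 95% interval of -0.08 to 0.18 (adjusted p = 0.58).

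Gata6 (ENSMUSG00000005836.9, chromosome 18, 11052508 to 11085635, plus strand), which in the mouse blastocyst sets up primitive endoderm, stepped through the sorted groups. It stood at 77.0, 74.3 and 74.3 TPM in SOX17+, 59.8, 58.9 and 61.0 TPM in SOX17+/T+, 40.8, 49.0 and 42.7 TPM in T+ and 2.26, 2.15 and 2.43 TPM in mESC. No 2 groups overlapped, and SOX17+/T+ lay between the other sorted groups. The difference was 0.32 ± 0.06 for SOX17+ against SOX17+/T+ (limma, adjusted p = 0.0011), 0.43 ± 0.06 for SOX17+/T+ against T+ (adjusted p = 1.6e-04) and 0.76 ± 0.06 for SOX17+ against T+ (adjusted p = 2.7e-07). The ratio of Gata6 to Gata4 TPM was 0.82 ± 0.031 in SOX17+, 0.874 ± 0.0508 in SOX17+/T+, 0.67 ± 0.0851 in T+ and 1.19 ± 0.153 in mESC. The T+ ratios (0.599, 0.764 and 0.647) all lay below the SOX17+ ratios (0.786, 0.826 and 0.847).

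Gata5 (ENSMUSG00000015627.5, chromosome 2, 180325133 to 180334699, minus strand), a regulator of endocardium and gut epithelium, was the least abundant of these relatives. It stood at 12.8, 11.9 and 9.95 TPM in SOX17+, 7.15, 6.77 and 6.5 TPM in SOX17+/T+ and 5.49, 6.15 and 6.79 TPM in T+, and was listed at 0 in all 3 mESC libraries. As with Gata4, SOX17+ lay above the other sorted groups, which overlapped. SOX17+ was higher than SOX17+/T+ by 0.68 ± 0.09 (limma, adjusted p = 8.1e-05) and than T+ by 0.81 ± 0.09 (adjusted p = 7.1e-06). The difference between SOX17+/T+ and T+ was 0.13 ± 0.09, with a 95% interval of -0.07 to 0.33 (adjusted p = 0.32).

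Against mESC, Gata4 rose by 4.99 ± 0.06 in SOX17+, 4.57 ± 0.06 in SOX17+/T+ and 4.52 ± 0.06 in T+ (limma, adjusted p from 6.3e-16 to 1.5e-15). Gata6 rose by 4.54 ± 0.06, 4.22 ± 0.06 and 3.78 ± 0.06 in the same order (adjusted p from 1.6e-15 to 7.2e-15). These 3 comparisons share the mESC libraries. T+ cells, sorted without the SOX17 reporter, thus held 66.2 ± 2.02 TPM of Gata4 and 44.2 ± 4.29 TPM of Gata6, while Sox17 itself stood at 7.96, 9.99 and 12.9 TPM in them.

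**Figure D3:**
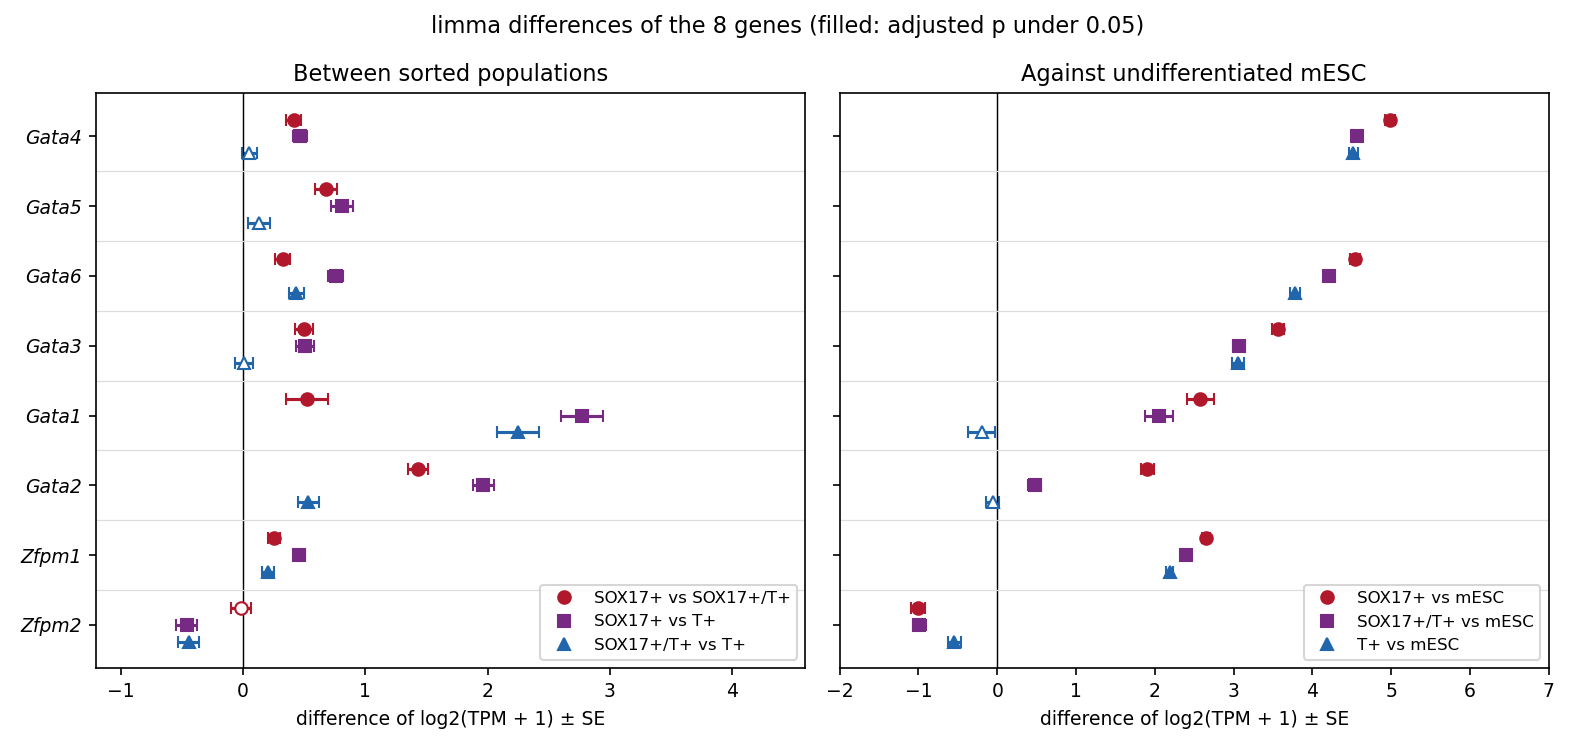
limma differences of log2(TPM + 1) ± SE (horizontal axes) for the 8 genes, between sorted populations (left) and against mESC (right). Filled symbols passed an adjusted p under 0.05. Gata5 against mESC is left out because it is listed at 0 there. The difference between SOX17+/T+ and T+ is near 0 for Gata3 and Gata4 and 2.25 for Gata1.

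The known endoderm partners of GATA4 and GATA6 were mostly highest in SOX17+. Of 12 listed partners, 10 were higher, 1 lower and 1 not called in SOX17+ against T+, with a median of 1.82 against -0.03 over all tested genes. Of the same 12, 8 were higher and 2 lower in SOX17+ against SOX17+/T+ (median 0.65, all genes 0.00). In SOX17+/T+ against T+, 10 were higher and 0 lower (median 1.61, all genes -0.03). Called shares were 91.7% in SOX17+ against T+, 83.3% in SOX17+ against SOX17+/T+ and 83.3% in SOX17+/T+ against T+. Of all tested genes, 54.5%, 36.6% and 28.4% were called in that order. Sox17, one of the 12, is a sort gene, so its difference can follow from the gate. The nuclear receptor Hnf4a, a liver and gut regulator, stood at 29.45 ± 1.29 TPM in SOX17+, 5.48 ± 0.48 TPM in SOX17+/T+ and 0.555 ± 0.139 TPM in T+, a difference of 4.29 ± 0.08 between SOX17+ and T+ (limma, adjusted p = 7.7e-13). Cxcr4, a chemokine receptor of endoderm and mesoderm, was the listed partner that was lower in SOX17+ than in T+ (-0.79 ± 0.18, limma, adjusted p = 0.0028).

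Genes of visceral and parietal endoderm, some of them known GATA6 targets, also stood higher in SOX17+. Of 11 tested genes, 9 were higher and 1 lower in SOX17+ against SOX17+/T+ (median 1.015, all genes 0.00). In SOX17+ against T+, 9 were higher and 2 lower (median 1.39, all genes -0.03). Of all tested genes, 36.6% and 54.5% were called in these comparisons. The counts include Apoa1, which passed the filter only through SOX17+ (1.67 to 2.07 TPM there). The serum carrier Ttr stood at 73.5 ± 8.33 TPM in SOX17+, 4.69 ± 0.3665 TPM in SOX17+/T+ and 1.22 ± 0.578 TPM in T+. The basement membrane collagen Col4a1 stood at 208 ± 26.7 TPM in SOX17+, 102 ± 6.01 TPM in SOX17+/T+ and 47.9 ± 2.22 TPM in T+. Pdgfra, a receptor of both mesoderm and primitive endoderm, ran the other way, at 9.28 ± 0.6825 TPM in SOX17+, 16.5 ± 1.61 TPM in SOX17+/T+ and 41.8 ± 6.03 TPM in T+. The plasma protein Afp, a marker of visceral endoderm, was listed at 0.343 to 0.593 TPM in SOX17+ and at 0 in T+, and was not tested.

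The cardiac partners of GATA4 split by direction, and 1 of the 11 tested passed the filter only through SOX17+. Of 11 tested, 4 were higher, 5 lower and 2 not called in SOX17+ against T+ (median -0.11, all genes -0.03). In SOX17+/T+ against T+, 0 were higher and 5 lower (median -0.24, all genes -0.03). Called shares were 81.8% and 45.5%, against 54.5% and 28.4% of all tested genes. The bHLH factor Hand1 was the most abundant, at 265 ± 16.0 TPM in SOX17+, 431 ± 38.4 TPM in SOX17+/T+, 683 ± 44.5 TPM in T+ and 0.52 ± 0.0789 TPM in mESC. Its relative Hand2 stood at 12.1 ± 1.58, 23.7 ± 1.64 and 40.6 ± 4.17 TPM in the sorted groups in that order. The homeobox gene Nkx2-5, which with GATA4 drives heart muscle genes, stood at 3.603 ± 0.854 TPM in SOX17+, 0.938 ± 0.0873 TPM in SOX17+/T+ and 1.298 ± 0.243 TPM in T+.

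Gata3 (ENSMUSG00000015619.10, chromosome 2, 9857078 to 9890034, minus strand) stood at 22.5, 20.8 and 20.6 TPM in SOX17+, 15.9, 14.8 and 13.6 TPM in SOX17+/T+, 15.6, 15.2 and 13.2 TPM in T+ and 0.825, 0.918 and 0.897 TPM in mESC. Its order over the groups was that of Gata4, with SOX17+ above an overlapping SOX17+/T+ and T+. SOX17+ was higher than SOX17+/T+ by 0.50 ± 0.07 (limma, adjusted p = 1.7e-04) and than T+ by 0.51 ± 0.07 (adjusted p = 6.9e-05), while SOX17+/T+ and T+ differed by 0.01 ± 0.07 (95% interval -0.15 to 0.17, adjusted p = 0.95). Against mESC it rose by 3.57 ± 0.07 in SOX17+, 3.07 ± 0.07 in SOX17+/T+ and 3.06 ± 0.07 in T+ (adjusted p from 6.7e-14 to 3.1e-13). Gata3 passed the filter only through the sorted groups, so these rises are given as a description.

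Markers of cell types in which Gata3 is best known were mixed. Of the 10 trophoblast genes, 8 were tested, and 5 were higher and 3 lower in SOX17+ against mESC. Of all tested genes, 85.4% were called there (35.4% higher, 50% lower). Hand1, Cdx2, Krt7 and Plac1 stayed under 1 TPM in mESC and passed the filter only through sorted groups. These counts are therefore given as a description. Plac1, a placental gene, stood at 6.08 ± 0.491 TPM in SOX17+, 8.08 ± 1.99 TPM in SOX17+/T+, 8.50 ± 0.601 TPM in T+ and 0.0777 ± 0.0674 TPM in mESC. It was called higher in all 3 sorted groups, which is also a description. The keratin Krt7 stood at 8.05 ± 1.70 TPM in SOX17+, 6.39 ± 0.993 TPM in SOX17+/T+, 0.885 ± 0.232 TPM in T+ and 0.341 ± 0.0072 TPM in mESC. The trophoblast factor Tfap2c was lower in all 3 sorted groups, at 0.76 ± 0.0872 TPM in SOX17+, 1.85 ± 0.183 TPM in SOX17+/T+ and 1.65 ± 0.493 TPM in T+, against 37.4 ± 0.538 TPM in mESC. Elf5 and Prl3d1, which mark trophoblast stem cells and giant cells, were listed at 0 in all sorted libraries. Cdx2, shared with posterior mesoderm and gut, stood at 33.9 ± 5.07 TPM in SOX17+, 28.5 ± 2.76 TPM in SOX17+/T+ and 48.3 ± 9.82 TPM in T+. Of the 8 surface ectoderm genes, 4 were tested, and 3 were higher and 1 lower in SOX17+ against mESC. The share of all tested genes called there was again 85.4%. Dlx3, under 1 TPM in mESC, likewise passed the filter only through the sorted groups. The homeobox gene Dlx3 stood at 3.42 ± 0.434 TPM in SOX17+, 4.98 ± 0.667 TPM in SOX17+/T+, 4.325 ± 0.265 TPM in T+ and 0.563 ± 0.194 TPM in mESC, and Tfap2a at 6.44 ± 0.733 TPM in SOX17+, 3.43 ± 0.519 TPM in SOX17+/T+, 1.61 ± 0.326 TPM in T+ and 1.585 ± 0.1695 TPM in mESC. Krt14 was listed at 0 in every sorted library and Trp63 stood at or under 0.0285 TPM in them, while the BMP target Msx2 stood at 149 ± 5.41 TPM in SOX17+, 126 ± 0.904 TPM in SOX17+/T+ and 103 ± 5.43 TPM in T+. The part of trophoblast or ectoderm cells in the Gata3 values was not tested.

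Gata1 (ENSMUSG00000031162.14, chromosome X, 7959260 to 7978071, minus strand) and Gata2 (ENSMUSG00000015053.14, chromosome 6, 88193891 to 88207032, plus strand) separated the populations in different places, and their promoters are shown because they differed most between the sorted groups. Each line holds the 250 bases before a RefSeq start in GRCm38.p6, on the gene's strand. Capitals mark CCACCC, a box bound by KLF factors, and CCAAT, on either strand. For Gata2, RefSeq has a distal start, known from mouse blood-forming cells, and a proximal start used more widely. The gene-level TPM does not separate them. The Gata1 window lies inside the span given above, which reaches 7978071, so the Gata1 TPM is not tied to this start either.
Gata1 promoter, chrX:7967911-7968160, minus strand: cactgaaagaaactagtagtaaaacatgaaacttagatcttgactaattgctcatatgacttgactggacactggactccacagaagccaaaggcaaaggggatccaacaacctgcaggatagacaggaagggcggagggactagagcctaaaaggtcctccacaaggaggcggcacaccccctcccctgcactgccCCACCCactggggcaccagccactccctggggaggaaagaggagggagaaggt
Gata2 distal promoter, chr6:88193641-88193890, plus strand: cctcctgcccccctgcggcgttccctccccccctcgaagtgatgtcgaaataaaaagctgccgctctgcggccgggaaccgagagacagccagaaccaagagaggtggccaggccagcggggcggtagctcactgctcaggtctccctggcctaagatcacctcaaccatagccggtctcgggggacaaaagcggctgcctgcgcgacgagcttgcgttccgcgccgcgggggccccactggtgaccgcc
Gata2 proximal promoter, chr6:88198414-88198663, plus strand: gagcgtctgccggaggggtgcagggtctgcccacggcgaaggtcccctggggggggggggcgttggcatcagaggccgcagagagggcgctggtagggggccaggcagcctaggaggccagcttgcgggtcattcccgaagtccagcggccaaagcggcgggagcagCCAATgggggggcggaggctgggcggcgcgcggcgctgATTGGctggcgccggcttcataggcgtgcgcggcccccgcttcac
The Gata1 window holds 1 CCACCC box, 53 bases before the start, and the proximal Gata2 window holds 2 CCAAT boxes, while the distal one holds neither. These boxes occur in 28.1% and 33.8% of the 32851 windows of this length. Windows were matched for Gata1, Gata2, Gata3, Gata5 and Zfpm1, 6 in all. None of the 6 holds a GATA motif (AGATAA or AGATAG or TGATAA or TGATAG, either strand), which 26.5% of all windows hold, or a SOX motif (ACAATG or ACAAAG, 25.2%). The T-box word GGTGTGA (3.33%) is not in them either. GC content was 54.0% for Gata1 and 67.2% to 74.0% for the other windows, against a median of 52.4%, and its part in the absence of these AT-rich letters was not tested.

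Gata1 stood at 5.88, 8.58 and 10.2 TPM in SOX17+, 4.97, 4.56 and 6.46 TPM in SOX17+/T+, 0.189, 0.208 and 0.606 TPM in T+ and 0.494, 0.46 and 0.589 TPM in mESC. The SOX17+ and SOX17+/T+ libraries overlapped and lay well above those of T+ and mESC, which overlapped as well. SOX17+/T+ was higher than T+ by 2.25 ± 0.17 (limma, adjusted p = 8.9e-07), and SOX17+ was higher than T+ by 2.78 ± 0.17 (adjusted p = 2.5e-08). With a pseudocount of 0.1 these differences were 3.757 and 4.353. Gata1 passed the filter only through SOX17+ and SOX17+/T+, so these differences from T+ are given as a description. SOX17+ was higher than SOX17+/T+ by 0.53 ± 0.17 (adjusted p = 0.030), a call that ended without SOX17+ replicate 2 or 3 or SOX17+/T+ replicate 1 or 2 (0.37 to 0.49, adjusted p from 0.086 to 0.12) and with a pseudocount of 0.1 (0.60 ± 0.31, adjusted p = 0.16). The call also ended with no filter (limma, adjusted p = 0.088) and with only the compared groups in the fit (adjusted p = 0.068). T+ differed from mESC by -0.20 ± 0.17 (95% interval -0.57 to 0.18, adjusted p = 0.30). Gata1 was thus the member with the largest step between T+ and SOX17+/T+, where Gata3, Gata4 and Gata5 were not called.

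Gata2 stood at 11.2, 13.7 and 13.1 TPM in SOX17+, 3.96, 4.38 and 3.82 TPM in SOX17+/T+, 2.45, 2.79 and 2.24 TPM in T+ and 2.65, 2.63 and 2.61 TPM in mESC. SOX17+ stood apart from all other groups, SOX17+/T+ lay slightly above T+ and mESC, and those 2 overlapped. The step was 1.43 ± 0.08 between SOX17+ and SOX17+/T+ (limma, adjusted p = 6.3e-08) and 0.53 ± 0.08 between SOX17+/T+ and T+ (adjusted p = 4.1e-04). T+ differed from mESC by -0.06 ± 0.08 (95% interval -0.24 to 0.13, adjusted p = 0.53), but was called higher with quantile normalization (0.23 ± 0.09, adjusted p = 0.038). The ratio of Gata1 to Gata2 TPM was 0.524, 0.626 and 0.783 in SOX17+, 1.26, 1.04 and 1.69 in SOX17+/T+, 0.0769, 0.0748 and 0.27 in T+ and 0.186, 0.175 and 0.225 in mESC. In SOX17+/T+ alone among the groups, Gata1 exceeded Gata2 in every library.

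The blood partners of GATA1 are given as a description, because 5 of the 11 tested, Klf1 and Gfi1b among them, passed the filter on low values only through SOX17+. Of 11 tested partners, 9 were higher and 1 lower in SOX17+ against SOX17+/T+ (median 0.99, all genes 0.00). In SOX17+/T+ against T+, 6 were higher, 2 lower and 3 not called (median 0.40, all genes -0.03). Called shares were 90.9% and 72.7%, against 36.6% and 28.4% of all tested genes. The erythroid factor Klf1 stood at 4.23, 5.46 and 7.46 TPM in SOX17+, 0.679, 0.514 and 0.726 TPM in SOX17+/T+ and 0.143, 0.215 and 0.112 TPM in T+. The repressor Gfi1b, a GATA1 target, stood at 4.04, 5.01 and 6.93 TPM in SOX17+, 1.04, 0.992 and 1.34 TPM in SOX17+/T+ and 0.532, 0.455 and 0.234 TPM in T+. Tal1, the bHLH factor that binds DNA with GATA1 through the bridging protein LMO2, stood at 11.8 ± 1.84 TPM in SOX17+, 3.69 ± 0.177 TPM in SOX17+/T+ and 2.54 ± 0.365 TPM in T+. Lmo2 itself was highest in T+, at 31.4 ± 3.29 TPM, against 21.4 ± 2.31 TPM in SOX17+ and 16.6 ± 2.54 TPM in SOX17+/T+.

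Red-cell genes stood highest in SOX17+. Of 12 listed, 8 were tested and all 8 were higher in SOX17+ against SOX17+/T+ (median 2.48, all genes 0.00, 36.6% of all genes called). Hba-a1, Hba-a2 and Alas2 were among those that reached 1 TPM only in SOX17+, which is how they entered the test, so this count is given as a description. The embryonic beta globin Hbb-bh1 stood at 51.9, 75.8 and 141 TPM in SOX17+, 1.66, 2.56 and 5.14 TPM in SOX17+/T+ and 1.06, 1.64 and 1.31 TPM in T+, and was listed at 0 in mESC. The embryonic alpha globin Hba-x stood at 19.6, 33.3 and 53.6 TPM in SOX17+, 1.15, 2.96 and 3.43 TPM in SOX17+/T+ and 0.262, 0.715 and 0.417 TPM in T+. In SOX17+, replicate 3 was highest and replicate 1 lowest for Gata1, Klf1, Gfi1b, Hbb-bh1 and Hba-x alike, and the summed list was 99.05, 147 and 253 TPM in replicates 1, 2 and 3. In SOX17+/T+ against T+, 2 of the 8 tested red-cell genes were higher, 0 lower and 6 not called. Of all tested genes, 28.4% were called there. Hba-x was called higher (1.21 ± 0.34, limma, adjusted p = 0.023), and Hbb-bh1 was not called (0.74 ± 0.36, adjusted p = 0.16).

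**Figure D4:**
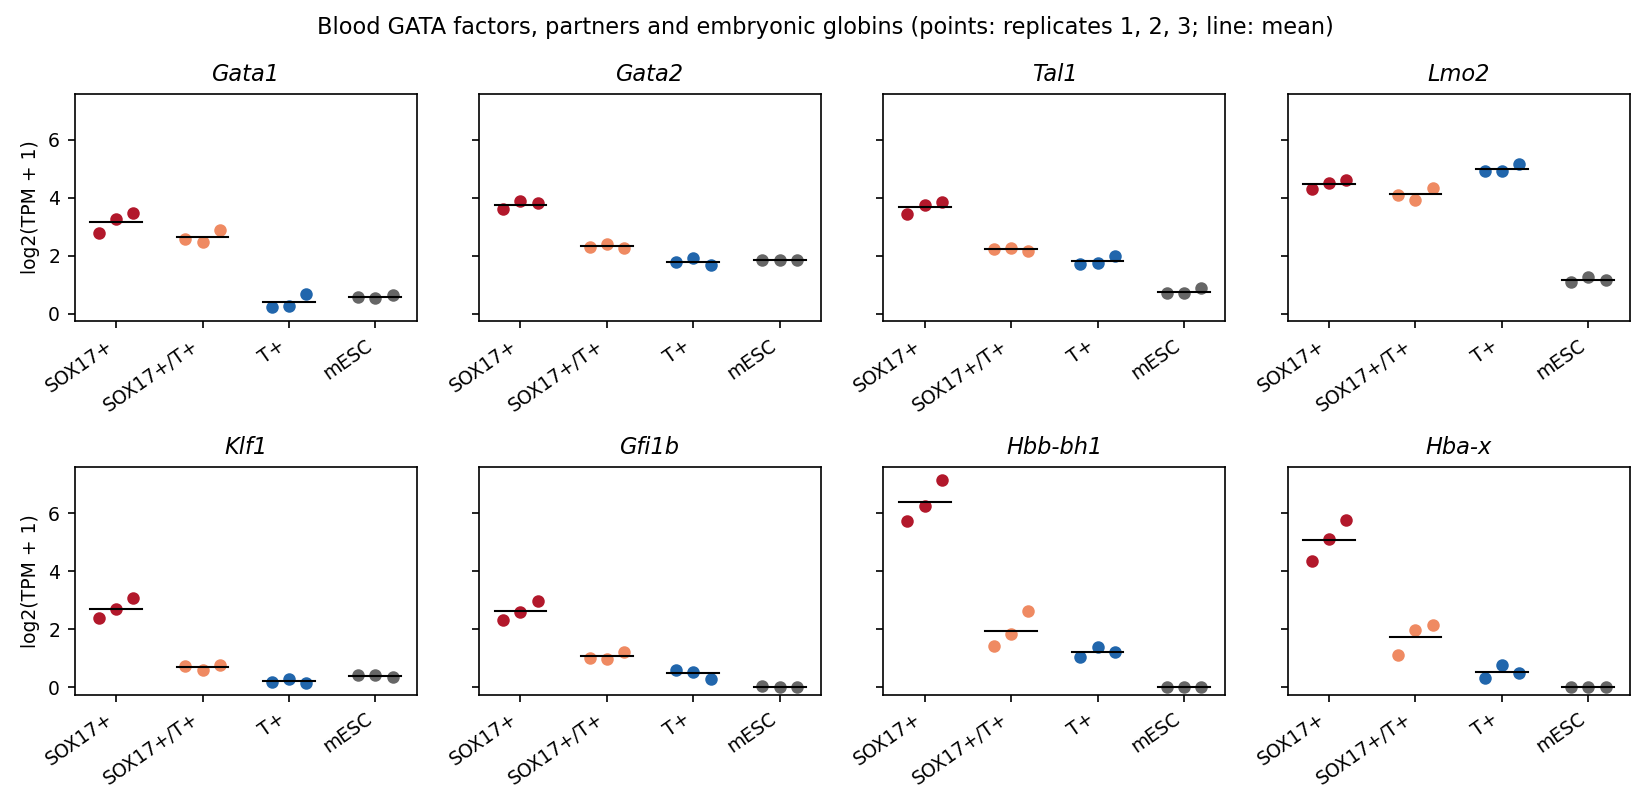
log2(TPM + 1) (vertical axes, shared scale) of Gata1, Gata2, 4 blood partners and 2 embryonic globins in SOX17+, SOX17+/T+, T+ and mESC libraries. Points are replicates 1, 2 and 3 from left to right, lines the mean. Gata1 overlaps in SOX17+ and SOX17+/T+, whereas Gata2, Klf1, Gfi1b and the globins are higher in SOX17+, and Lmo2 is highest in T+.

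Endothelial and hemangioblast genes, among which GATA2 is active, were tested as a further list. In SOX17+ against SOX17+/T+, 10 of 12 were higher and 1 lower (median 1.05, all genes 0.00). In SOX17+/T+ against T+, 9 were higher and 2 lower (median 0.77, all genes -0.03). The called share was 91.7% in both, against 36.6% and 28.4% of all tested genes. The endothelial cadherin Cdh5 stood at 15.5 ± 1.77 TPM in SOX17+, 4.99 ± 0.589 TPM in SOX17+/T+ and 0.643 ± 0.137 TPM in T+, and the receptor Tie1 at 11.9 ± 1.49, 3.73 ± 0.65 and 0.355 ± 0.15 TPM in that order. The VEGF receptor Kdr, which also marks nascent mesoderm, ran the other way, at 18.6 ± 2.26 TPM in SOX17+, 22.2 ± 1.31 TPM in SOX17+/T+ and 27.9 ± 1.42 TPM in T+. The share of Gata2 that sits in endothelial, blood or endoderm cells was not tested.

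Zfpm1 (ENSMUSG00000049577.15, chromosome 8, 122282141 to 122337251, plus strand) was the abundant FOG gene. It stood at 66.0, 65.5 and 69.3 TPM in SOX17+, 53.5, 55.0 and 59.3 TPM in SOX17+/T+, 47.5, 50.8 and 46.9 TPM in T+ and 9.71, 9.96 and 9.84 TPM in mESC. The 4 groups did not overlap, and their order was that of Gata6. It was higher in SOX17+ than in SOX17+/T+ by 0.26 ± 0.05 (limma, adjusted p = 0.0010), and higher in SOX17+/T+ than in T+ by 0.20 ± 0.05 (adjusted p = 0.0063). Against mESC it rose by 2.65 ± 0.05 in SOX17+, 2.39 ± 0.05 in SOX17+/T+ and 2.19 ± 0.05 in T+ (adjusted p from 1.8e-14 to 1.1e-13). In T+, Zfpm1 was abundant where its blood partner Gata1 was nearly missing: the ratio of Zfpm1 to Gata1 TPM was 252, 243.5 and 77.5 in T+, against 11.2, 7.64 and 6.77 in SOX17+, 10.8, 12.1 and 9.18 in SOX17+/T+ and 19.6, 21.6 and 16.7 in mESC.

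Zfpm2 (ENSMUSG00000022306.9, chromosome 15, 40655035 to 41104592, plus strand) was the member that fell. It stood at 0.616, 0.455 and 0.687 TPM in SOX17+, 0.605, 0.523 and 0.679 TPM in SOX17+/T+, 1.24, 1.03 and 1.28 TPM in T+ and 2.1, 2.43 and 2.01 TPM in mESC. The SOX17+ and SOX17+/T+ libraries overlapped, T+ lay above them and mESC above T+. Zfpm2 fell by 1.0 ± 0.08 in SOX17+ and by 0.54 ± 0.08 in T+ against mESC (limma, adjusted p = 8.0e-08 and 4.0e-05). It was lower in SOX17+ than in T+ (-0.46 ± 0.08, adjusted p = 4.2e-04) and in SOX17+/T+ than in T+ (-0.44 ± 0.08, adjusted p = 0.0014). Zfpm2 passed the filter only through mESC and T+, so these falls are given as a description. With a pseudocount of 0.1, Zfpm2 was -0.912 in SOX17+ against T+, -0.868 in SOX17+/T+ against T+ and -1.745 in SOX17+ against mESC. With quantile normalization, Zfpm2 was -0.652 in SOX17+ and -0.228 in T+ against mESC, with all of these still called. SOX17+ and SOX17+/T+ differed by -0.02 ± 0.08 (95% interval -0.20 to 0.16, adjusted p = 0.92). The ratio of Zfpm1 to Zfpm2 TPM was 117 ± 23.3 in SOX17+, 93.6 ± 9.97 in SOX17+/T+, 41.5 ± 6.94 in T+ and 4.54 ± 0.405 in mESC.

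The co-repressors that FOG proteins can recruit were called about as often as other genes between the sorted groups next to each other: 42.9% of them against 36.6% of all tested genes in SOX17+ against SOX17+/T+, and 28.6% against 28.4% in SOX17+/T+ against T+. Of 14 NuRD and CtBP genes, 4 were higher, 2 lower and 8 not called in SOX17+ against SOX17+/T+, and 2 were higher, 2 lower and 10 not called in SOX17+/T+ against T+, with medians of -0.04 and 0.02. Against mESC, 6 were higher and 8 lower in SOX17+ (median -0.48, all genes -0.18), where 85.4% of all tested genes were called. Ctbp2 stood at 59.1 ± 3.64 TPM in SOX17+, 62.6 ± 6.23 TPM in SOX17+/T+, 71.2 ± 1.79 TPM in T+ and 308 ± 13.7 TPM in mESC, and the NuRD subunit Mta1 at 197 ± 9.67 TPM in SOX17+, 210.1 ± 10.03 TPM in SOX17+/T+, 206.7 ± 10.03 TPM in T+ and 84.45 ± 1.20 TPM in mESC. Of 8 tested genes of other proteins with GATA-type fingers, 1 was higher, 2 lower and 5 not called in SOX17+ against SOX17+/T+. The called share was 37.5%, against 36.6% of all tested genes. Among them Trps1, a repressor that binds the GATA sequence, was lower in SOX17+ (-0.92 ± 0.12, limma, adjusted p = 7.0e-05). It stood at 0.697 ± 0.0994 TPM in SOX17+, 2.25 ± 0.663 TPM in SOX17+/T+, 3.05 ± 0.358 TPM in T+ and 5.15 ± 0.224 TPM in mESC. Trps1 passed the filter only through groups other than SOX17+, so its difference is given as a description.

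**Figure D5:**
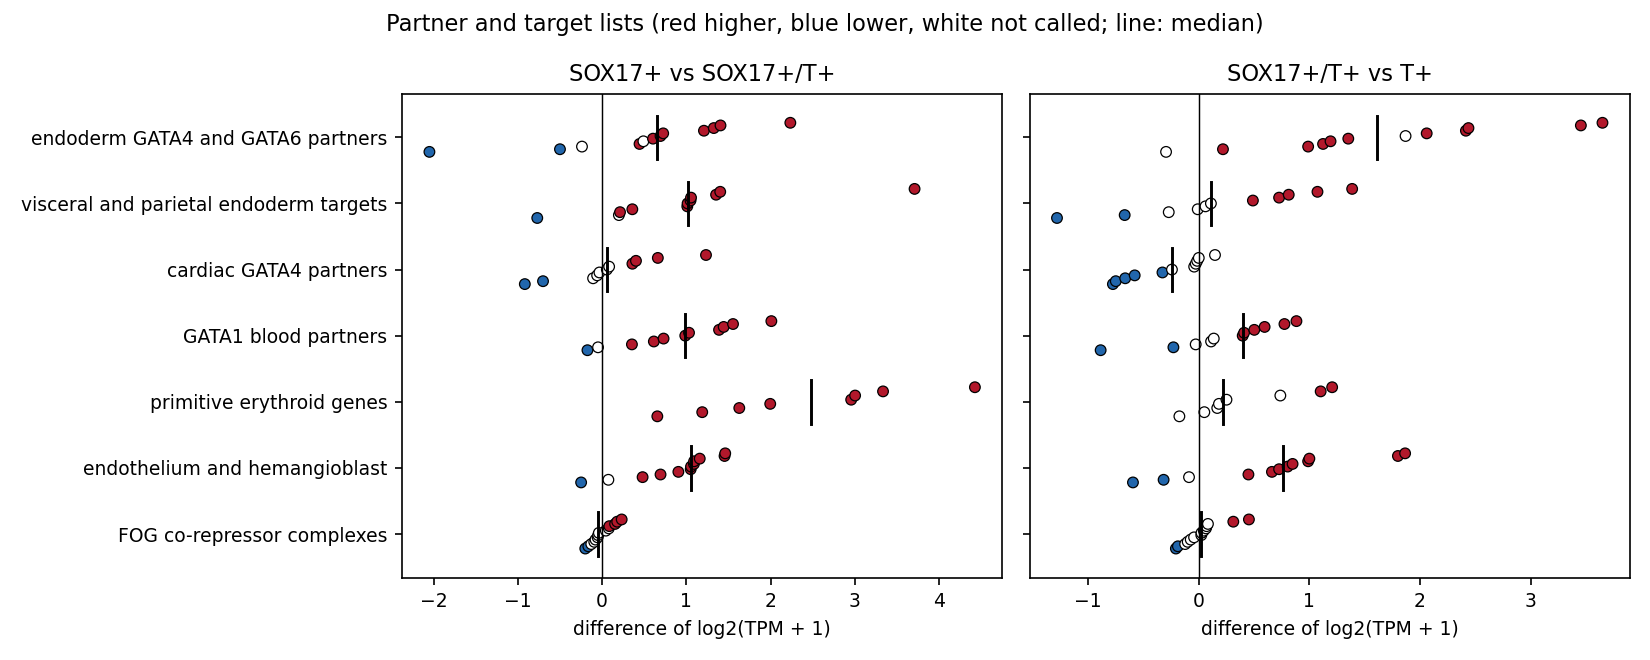
Differences of log2(TPM + 1) (horizontal axes) of the tested genes of 7 lists, for SOX17+ against SOX17+/T+ (left) and SOX17+/T+ against T+ (right). Red points were called higher, blue points lower and white points were not called, and the line is the list's median. Endoderm partners lie mainly to the right in both panels, the red-cell genes mainly in the left panel, and the co-repressors close to 0.

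Rows that overlap the members in the table were low. The largest was 1010001N08Rik, a transcript on the opposite strand whose span meets the 5' end of Gata6. It stood at 4.71, 2.81 and 3.26 TPM in SOX17+, 2.05, 1.49 and 1.77 TPM in SOX17+/T+, 1.23, 1.64 and 0.948 TPM in T+ and 0.198, 0 and 0.138 TPM in mESC. It was higher in SOX17+ than in SOX17+/T+ (0.71 ± 0.15, limma, adjusted p = 0.0022), as Gata6 was, and SOX17+/T+ against T+ was not called (0.29 ± 0.15, adjusted p = 0.17). Gata5os, opposite Gata5, stood at or under 0.0402 TPM in every library. Gm20388, a long row that spans Zfpm1, was listed at 1.53 TPM in 1 SOX17+ library, at 2.89 TPM in 1 T+ library and at 0 in the other 10. The libraries are stranded per the labels, and the sources used here give no strand setting for the quantification.

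Genes whose pattern was most like each member were sought by Pearson correlation of log2(TPM + 1) among 11141 genes, which describes shape and not size, and points within a group share their library preparation. Over all 12 libraries the gene most like Gata6 was Zfpm1 (r = 0.999), the FOG gene described above. Gata4 was most like the WNT target Nkd1 (r = 0.999), Gata3 most like the peptide-amidating enzyme Pam (r = 0.999) and Gata5 most like Tspan18 (r = 0.998). Gata1 was most like the trypsin gene Prss1 (r = 0.989, with means of 6.28 TPM in SOX17+, 4.47 TPM in SOX17+/T+ and 0.101 TPM in T+), and Gata2 most like Slc32a1 (r = 0.992). Zfpm2 was most like Syt13 (r = 0.991). Over the 9 sorted libraries alone, Gata6 was most like Slc9a3r2 (r = 0.993), followed by Cobll1 (0.991) and the epithelial factor Grhl2 (0.990). Within the family and over these 9 libraries, r was 0.966 for Gata6 with Zfpm1, 0.947 for Gata3 with Gata4, 0.921 for Gata1 with Gata6 and 0.562 for Gata1 with Gata3. Values over all 12 libraries also carry the gap between mESC and the sorted groups. Gata4 with Gata6 was 0.995 over the 12 and 0.813 over the 9, and Gata1 with Gata6 was 0.629 over the 12.

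Counted over the family, all 6 GATA genes and Zfpm1 were higher and Zfpm2 was not called in SOX17+ against SOX17+/T+, where 36.6% of all tested genes were called (19.8% higher, 16.8% lower). The Gata1 call among them ended in several settings, as given above. In SOX17+ against T+, 7 were higher and Zfpm2 was lower, where 54.5% of all tested genes were called (25.4% higher, 29% lower). In SOX17+/T+ against T+, Gata1, Gata2, Gata6 and Zfpm1 were higher, Zfpm2 was lower and 3 were not called, where 28.4% of all tested genes were called (12.6% higher, 15.8% lower). In SOX17+ against mESC, 7 were higher and 1 was lower, where 85.4% of all genes were called (35.4% higher, 50% lower). In SOX17+/T+ against mESC, 7 were higher and 1 was lower, where 85.2% were called (34.9% higher, 50.3% lower). Being called there says little about a gene. For Gata1, Gata3, Gata5 and Zfpm2, some difference was also built in by the filter, as it was against T+ for Gata1 and Zfpm2. In T+ against mESC, 5 were higher, 1 was lower and Gata1 and Gata2 were not called, where 84% of all genes were called (34.5% higher, 49.5% lower). Between the sorted groups, Gata2 was called and at least 2-fold higher on the log2(TPM + 1) scale in SOX17+ against SOX17+/T+. So were Gata1 and Gata2 in SOX17+ against T+ and Gata1 in SOX17+/T+ against T+. Of all tested genes, 1.62%, 4.95% and 1.77% were both called and that much higher, in that order.

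SOX17+/T+ was also set against the midpoint between the log2-scale means of SOX17+ and T+, a difference for which 9.87% of all tested genes were called (4.43% higher, 5.44% lower). Gata1 lay above the midpoint (0.86 ± 0.15, limma, adjusted p = 0.0035, or 1.58 with a pseudocount of 0.1) and Gata2 below it (-0.45 ± 0.07, adjusted p = 0.0023), and both calls held in the 7 other settings and with each of the 9 sorted libraries left out. Gata3 (-0.24 ± 0.06, adjusted p = 0.032), Gata4 (-0.18 ± 0.05, adjusted p = 0.045) and Gata5 (-0.27 ± 0.08, adjusted p = 0.049) also lay below it. Those 3 calls ended in several settings, such as without SOX17+ replicate 1 (adjusted p = 0.059, 0.078 and 0.085). Gata6 (0.06 ± 0.05, 95% interval -0.06 to 0.17, adjusted p = 0.59), Zfpm1 (-0.03 ± 0.04, 95% interval -0.12 to 0.06, adjusted p = 0.78) and Zfpm2 (-0.21 ± 0.07, adjusted p = 0.085) were not called. On the log2 scale, Gata1 in cells with both reporters thus stood closer to its SOX17+ level and Gata2 closer to its T+ level. Mean Gata1 was 8.23 TPM in SOX17+, 5.33 TPM in SOX17+/T+ and 0.334 TPM in T+. The log2-scale midpoint lies lower than a midpoint of TPM, which was not tested. Gata1 passed the filter only through SOX17+ and SOX17+/T+, so its place against the midpoint is given as a description.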

How the data were processed

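Poly(A) RNA (500 ng of total RNA per sample) was sequenced as stranded libraries with 100 bp paired-end reads, per the labels. The authors deposited 1 table of TPM values per gene and library. Tools listed in the submitters' processing notes are cutadapt, STAR and StringTie (no versions), with mm10 and GRCm38 as builds. No source used here gives the annotation release. Every TPM column sums to 1000000, so depth is unknown and no count test was used. The 282 empty cells of the 54480 rows were set to 0 (none in the 8 genes), and rows of 11 split genes were summed, leaving 54446 genes.

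Values were taken as log2(TPM + 1), and 16097 genes with at least 1 TPM in at least 3 of 12 libraries were fitted with limma 3.58.1 in R 4.3.3 (1 mean per group, eBayes with trend and robust, 2-sided), adjusted by Benjamini-Hochberg over all tested genes. The code was tested on simulated data. There were 6 pairwise comparisons and the midpoint comparison. The 8 genes and the 13 gene lists (139 different genes) were chosen with earlier results of these data known. Named genes followed a fixed rule: the 8 members, rows that overlap them, the 3 most alike genes per member, and, within a list and comparison, the 4 called genes that changed most and the 2 most abundant, besides any at 0 in every library (Prl3d1). Afp, Elf5, Krt14 and Trp63 lie outside it and were chosen after their values were seen. Promoters come from RefSeq, with 5 of the 8 genes matched.

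Groups carry the same replicate numbers. After group means were removed, same-numbered SOX17+/T+ and T+ libraries correlated at r = 0.204, 0.149 and 0.242 across genes, so for that pair the numbers were taken to pair the libraries. The reported fit does not use this pairing, so its SE and p-values treat these libraries as unpaired. The labels do not say what same-numbered libraries share. The alternatives were a pseudocount of 0.1, no filter, median-of-ratios scaling, quantile normalization, eBayes without trend and robust, only the compared groups, a replicate block, and each library left out.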

Additional observations from a re-analysis of the deposited data

How the results depend on the processing

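Over the alternatives run, the number of the 8 genes called was 8 in SOX17+ against mESC, SOX17+/T+ against mESC and SOX17+ against T+, 5 in SOX17+/T+ against T+, 6 to 7 in SOX17+ against SOX17+/T+ and 6 to 7 in T+ against mESC. No difference called in the reported fit changed sign. Among those not called, 5 changed sign in 9 cases, of which Gata2 in T+ against mESC became a call (0.229 with quantile normalization). The others were Gata1 in T+ against mESC, Gata3 in SOX17+/T+ against T+, Zfpm2 in SOX17+ against SOX17+/T+ and Zfpm1 against the midpoint. Scaling moved the all-gene median in SOX17+ against mESC between -0.18 as deposited and 0.05 with quantile normalization. The family's mean levels moved by at most 8.23% with median-of-ratios scaling.

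The midpoint comparison was the least stable. Its count of 5 called members became 3 with a pseudocount of 0.1, 2 with no filter on low values and 2 with only the compared groups in the fit, and ran between 2 and 5 with 1 library left out. Its count over all genes was 1589, became 1056 with no filter and 2146 with the replicate block, and ran between 832 and 1513 with 1 library left out, lowest without SOX17+/T+ replicate 1 (832) or 2 (888). The cause was not tested.

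With the replicate block, SOX17+/T+ against T+, the comparison the numbers pair, kept 5 called members. The block ended 1 member call, Gata5 against the midpoint (-0.273, adjusted p = 0.056). In other pairs of groups at least 1 same-numbered correlation was under 0.1. For SOX17+ with SOX17+/T+ the values were 0.0463, 0.178 and 0.224 in replicates 1, 2 and 3. Low genes are limited by unknown depth: with a pseudocount of 0.1, Gata1 in SOX17+/T+ against mESC was 3.134, and Zfpm2 against mESC was -1.701 in SOX17+/T+ and -0.833 in T+, each over 1.5 times as large, as were the values given with this pseudocount for Zfpm2 and for Gata1 against T+ and the midpoint. Gata2 in SOX17+/T+ against mESC was 0.766 with quantile normalization, against 0.475.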
